A study of Mus musculus with 3 samples.

Results

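The genes described here are the nuclear-encoded genes of oxidative phosphorylation, taken by symbol: every gene whose name starts with Ndufa, Ndufb, Ndufc, Ndufs, Ndufv, Uqcr, Cox4 to Cox8 or Atp5, with names containing -ps left out. The rule matched 92 of the 33696 genes listed. They comprise 41 genes named for complex I, 8 complex I assembly factors (the Ndufaf genes), 8 genes of complex III, 18 of complex IV and 17 of ATP synthase. The grouping follows symbols only, so Ndufa4 and its relative Ndufa4l2 count with complex I here, whichever complex their proteins join. Over the cells given a class name below, in all 3 libraries together, 88 of the 92 had at least 100 UMIs. UMIs are unique molecular identifiers, each the tag of 1 captured transcript. The names are those of the deposited files, which use older symbols for ATP synthase: Atp5a1 is the alpha subunit, Atp5b the beta subunit, and Atp5g1, Atp5g2 and Atp5g3 encode the same c-ring protein.

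Mouse spleen cells were profiled by 5′ droplet single-cell RNA sequencing in 3 libraries, labelled Chow, MASH and MASH-Phe-free, with 1 library for each label. The series title places the work in MASH-associated liver cancer and names phenylalanine. The labels of the spleen libraries give the tissue and the treatment name only: strain, diet composition, time, age, how many mice went into a library and their tumour status are not given for the spleens, and the design text of the series describes bulk tumour RNA of C3H mice. With 1 library per group, differences between groups cannot be told apart from differences between animals or preparations, and no test between groups was possible.

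In the respiratory chain, complexes I, III and IV pass electrons from NADH and ubiquinol to oxygen and pump protons across the inner mitochondrial membrane, and ATP synthase uses the resulting gradient to make ATP. Each of these complexes is built from subunits encoded in the nucleus together with a few encoded in mitochondrial DNA, so that both genomes must be expressed. Several nuclear subunits of complex IV exist as paired isoforms with tissue-restricted members, best known from heart, skeletal muscle and testis. Resting lymphocytes keep a modest respiratory chain that grows on activation, erythroid precursors hold many mitochondria for haem synthesis and lose them as they mature, and mature neutrophils hold few and rely mainly on glycolysis.

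The libraries held 16495 (Chow), 19219 (MASH) and 16778 (MASH-Phe-free) barcodes with 138787602, 152501471 and 160115282 UMIs, and 15669, 17333 and 15560 cells were used after filters on cells and removal of called doublets. Between 72 and 102 barcodes were shared by each pair of libraries. Cells were clustered on 2000 variable genes from which all 92 members were left out, and clusters were named from marker lists, so each class is called "-like". The 14 classes with at least 30 cells in each library were compared, and in each of them no marker of its own list was at 0 in any library. Unnamed clusters held 1609, 2012 and 1125 cells, among them clusters mostly from the Chow library led by the exocrine pancreas genes Ctrb1, Try5 and Prss2, and were not compared.

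Promoter sequences are shown for 5 members on which the results below turn: both genes of the Cox6b pair, which part in erythroid cells, Cox6a1, whose partner gene is the plasmacytoid isoform, and Atp5j and Uqcr11, which were among those farthest above B cells in germinal centre and erythroid cells. Each run is the 250 bases before the RefSeq start site in build GRCm38.p6, written 5′ to 3′ on the gene's strand. All 5 genes lie on the minus strand: Cox6b2 at chr7:4753095-4753344, Cox6b1 at chr7:30626115-30626364, Cox6a1 at chr5:115348959-115349208, Atp5j at chr16:84834977-84835226 (1 of its 2 entries) and Uqcr11 at chr10:80406822-80407071. Capitals mark a match to 1 of 4 motifs named below.
Cox6b2: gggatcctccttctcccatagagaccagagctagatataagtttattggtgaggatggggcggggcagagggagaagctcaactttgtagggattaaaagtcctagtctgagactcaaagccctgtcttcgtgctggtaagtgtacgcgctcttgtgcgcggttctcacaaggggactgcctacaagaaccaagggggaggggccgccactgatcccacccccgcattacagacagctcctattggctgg
Cox6b1: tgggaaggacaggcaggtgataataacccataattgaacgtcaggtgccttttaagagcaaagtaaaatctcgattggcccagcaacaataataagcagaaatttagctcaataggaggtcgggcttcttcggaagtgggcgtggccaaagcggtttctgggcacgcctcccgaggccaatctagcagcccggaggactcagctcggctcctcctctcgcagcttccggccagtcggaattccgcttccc
Cox6a1: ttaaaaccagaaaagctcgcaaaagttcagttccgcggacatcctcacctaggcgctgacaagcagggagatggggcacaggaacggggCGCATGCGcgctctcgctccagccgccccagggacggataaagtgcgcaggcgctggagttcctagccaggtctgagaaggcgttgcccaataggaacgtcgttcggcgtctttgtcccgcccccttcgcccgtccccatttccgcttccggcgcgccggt
Atp5j: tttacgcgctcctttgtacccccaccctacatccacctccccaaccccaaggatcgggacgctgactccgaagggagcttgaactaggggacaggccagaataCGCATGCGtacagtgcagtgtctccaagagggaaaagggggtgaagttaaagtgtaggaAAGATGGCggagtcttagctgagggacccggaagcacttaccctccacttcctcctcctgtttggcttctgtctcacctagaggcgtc
Uqcr11: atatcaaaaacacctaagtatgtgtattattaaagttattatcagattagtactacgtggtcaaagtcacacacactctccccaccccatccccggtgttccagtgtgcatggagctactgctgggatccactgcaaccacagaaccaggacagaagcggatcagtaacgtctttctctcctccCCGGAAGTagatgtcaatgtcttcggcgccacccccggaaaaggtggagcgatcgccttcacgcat

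The capitals are the NRF1 core CGCATGCG in Cox6a1, 161 bases before the start site, and in Atp5j, 147 bases before it; the YY1 core AAGATGGC in Atp5j, 88 bases before; and the ETS core CCGGAAGT in Uqcr11, 66 bases before. RefSeq promoters were present for 75 of the 92 members, and each was searched on both strands over 300 bases, 250 before to 50 after the start. The NRF1 core was found in 11 of the 75 (14.7%) against 2.07% of 27025 genes, and the YY1 core also in 11 (14.7%) against 3.19%. Among members whose sites were listed by position, Atp5j alone had a YY1 core in the 250 bases before the start. The ETS core was found in 5 (6.67%) against 4.31%, and the ERR site core AAGGTCA in 7 (9.33%) against 5.38%. ATP synthase genes held at least 1 of the 4 motifs in 9 of 15 promoters, complex I genes in 13 of 35, complex III genes in 3 of 5, the assembly factors in 3 of 7 and complex IV genes in 2 of 13. Over all members it was 30 of 75 (40%), and 14.1% of all genes held at least 1. These are letter matches only, and the 4 motifs do not overlap in the sequences printed. The windows of Cox6b1 and Cox6b2 matched none of the 4.

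Across cell types the members took the largest share of UMIs in early erythroid-like cells and the smallest in mature neutrophil-like cells. In early erythroid-like cells the share was 2.82% in Chow, 2.88% in MASH and 3.05% in MASH-Phe-free. Germinal centre B-like cells followed with 2.08%, 2.14% and 2.23%. B-like cells, the most numerous class, had 1.05%, 1.13% and 1.14%, below T-like cells with 1.33%, 1.44% and 1.47% and monocyte-like cells with 1.58%, 1.75% and 1.77%. Early erythroid-like and germinal centre B-like cells did not overlap with each other or with any other compared class.

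At the other end, mature neutrophil-like cells had 0.518%, 0.441% and 0.609% and plasma-like cells 0.629%, 0.643% and 0.695%. The low plasma value sits beside immunoglobulin transcripts, which made up 63.6%, 65.4% and 65.4% of plasma-like UMIs. With immunoglobulin, haemoglobin and mitochondrial genes left out of the total, the plasma share was 1.77%, 1.90% and 2.06%. The classes in between ran from immature neutrophil-like (0.949%, 1.03% and 1.03%) and megakaryocyte and platelet-like cells (0.991%, 1.16% and 1.05%) through basophil-like (1.35%, 1.33% and 1.5%) and macrophage-like cells (1.34%, 1.55% and 1.53%) to conventional dendritic-like (1.43%, 1.51% and 1.54%), NK-like (1.44%, 1.64% and 1.70%) and plasmacytoid dendritic-like cells (1.46%, 1.65% and 1.71%). Most neighbours in this middle range overlapped over the 3 libraries, with a gap between megakaryocyte and platelet-like cells (highest 1.16%) and T-like and basophil-like cells (lowest 1.33%).

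**Figure D1:**
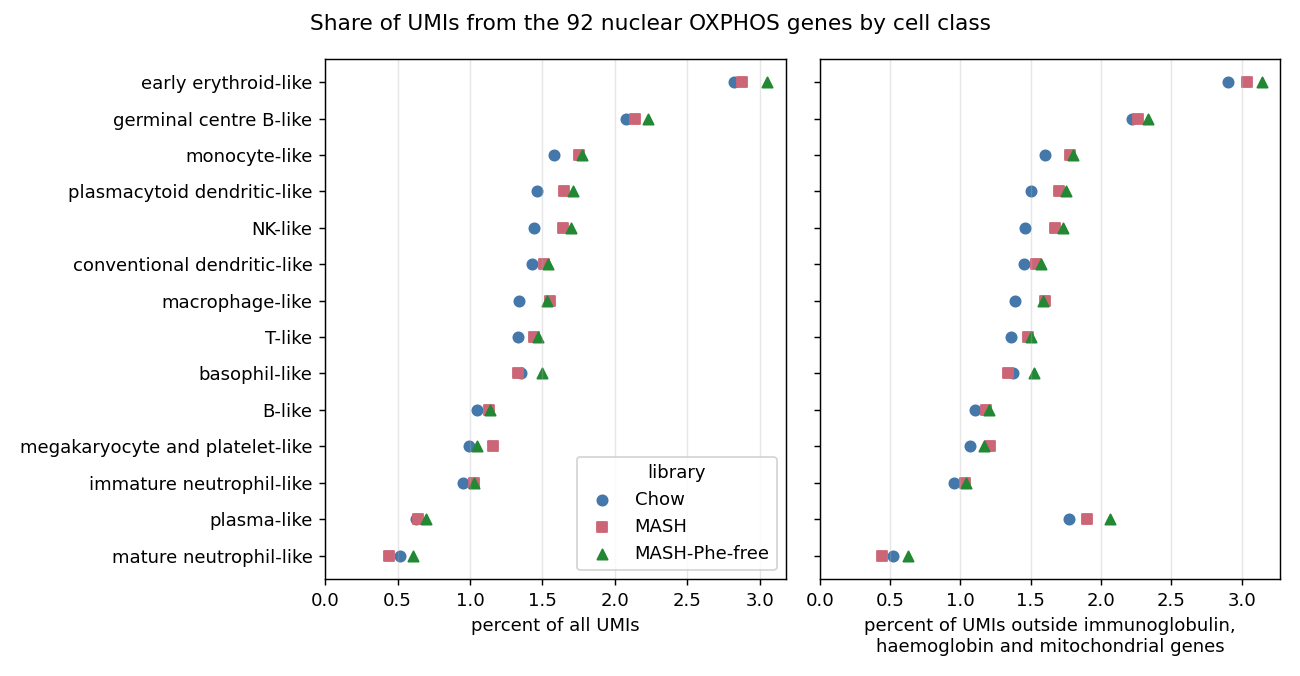
Share of UMIs from the 92 members in each cell class (horizontal axis, percent), with 1 point per library. Early erythroid-like cells stand at the right in every library (2.82% to 3.05%) and mature neutrophil-like cells at the left (0.441% to 0.609%), and plasma-like cells move from 0.629% to 1.77% in Chow when immunoglobulin, haemoglobin and mitochondrial genes are left out of the total.

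Early erythroid-like cells led for each complex. Per total UMI, the lowest class was mature neutrophil-like for complex I, complex III and ATP synthase and plasma-like for complex IV. In early erythroid-like cells complex I took 0.837%, 0.873% and 0.91% of UMIs, complex III 0.291%, 0.301% and 0.324%, complex IV 0.7%, 0.711% and 0.764%, and ATP synthase 0.963%, 0.967% and 1.01%. In B-like cells complex I took 0.337%, 0.364% and 0.359% and ATP synthase 0.326%, 0.358% and 0.362%. In mature neutrophil-like cells complex I took 0.155%, 0.129% and 0.184% and complex IV 0.167%, 0.146% and 0.196%, above the 0.136%, 0.139% and 0.154% of plasma-like cells. That order for complex IV reversed with immunoglobulin, haemoglobin and mitochondrial genes left out of the total. Plasma-like cells then had 0.383%, 0.411% and 0.454%, and mature neutrophil-like cells 0.168%, 0.147% and 0.202%. All 4 complexes were higher in the erythroid class than in B-like cells, and lower in mature neutrophils, in each library.

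The mitochondrially encoded subunits, which enter the same complexes, were ordered otherwise. Their 13 genes took 2.89%, 2.69% and 2.82% of UMIs in B-like cells but 2.11%, 2% and 2.01% in early erythroid-like cells, where the nuclear share was more than that of B-like cells. Mature neutrophil-like cells were low for both, with 0.492%, 0.452% and 0.37%. Barcodes with over 10% mitochondrial UMIs had been left out, which caps this share. These shares are per total UMI. In the class comparison below, which scales the sums otherwise, none of the 13 was called between early erythroid-like and B-like cells.

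Within classes the clusters differed too. The dividing T cluster had a member share of 2.04%, 2.07% and 2.24%, against 1.18% to 1.27% in the T cluster led by Lef1 and Igfbp4, genes of naive T cells. In the neutrophil series the share stepped down with the stage of the granule genes. It went from 1.28%, 1.52% and 1.33% in the Fcnb and Cebpe cluster to 0.847%, 0.836% and 0.905% in the Ltf and Ngp cluster and then to the mature cluster. The Fcnb and Cebpe cluster held 56, 7 and 120 cells, so its MASH value rests on 7. Median depth fell along the same steps, at 36116, 16911 and 3981 UMIs per cell, and its part in these shares was not tested. Macrophage clusters ranged from 0.725%, 0.776% and 0.784% (led by Mertk) to 1.79%, 1.97% and 2.04% (led by Hmox1 and Spic, genes of iron-recycling red pulp macrophages). These 2 clusters differed in depth, with a median of 11996 UMIs per cell in the Mertk cluster and 757 in the Hmox1 and Spic cluster, and the part of depth in their shares was not tested.

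Single members spanned a wide range of levels, given here in CPM, each gene's UMIs scaled to a class total of 1000000. Among 83 members with at least 100 UMIs in their highest class in each library, the highest class exceeded the lowest by a median of 8.03-fold with 1 CPM added to both (2.29 to 660, the last against a class with 0 UMIs and so set by that offset), and 7 members spanned under 4-fold. The highest class was early erythroid-like for 67 of the 83 and germinal centre B-like for 5. The lowest was mature neutrophil-like for 62 and plasma-like for 18, per total UMI, of which immunoglobulin took most in plasma-like cells.

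Cox4i1, the ubiquitous isoform of the complex IV subunit that is among the most abundant, was at 1100, 1060 and 1200 CPM in early erythroid-like cells, 507, 495 and 564 in B-like cells and 282, 233 and 317 in mature neutrophil-like cells. Atp5b, the catalytic beta subunit, was at 1040, 1010 and 1060 CPM in early erythroid-like cells, 557, 616 and 617 in germinal centre B-like cells, 220, 246 and 254 in B-like cells and 105, 84.2 and 110 in mature neutrophil-like cells. Uqcrc1, a core protein of complex III, was at 351, 316 and 364 CPM, 92.3, 95.9 and 97 CPM, and 28, 30.5 and 40.3 CPM in early erythroid-like, B-like and mature neutrophil-like cells. In all 3 genes the libraries of a class lay closer to one another than to those of the next class named.

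Cox7a2l, which is named with complex IV but acts in joining complexes III and IV into supercomplexes, had another order. It was at 163, 156 and 139 CPM in early erythroid-like cells, below the 277, 290 and 259 CPM of B-like cells. Conventional dendritic-like cells had 373, 342 and 313 CPM and plasma-like cells 72.7, 63.9 and 71.8 CPM. The erythroid and B-like values did not overlap.

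**Figure D2:**
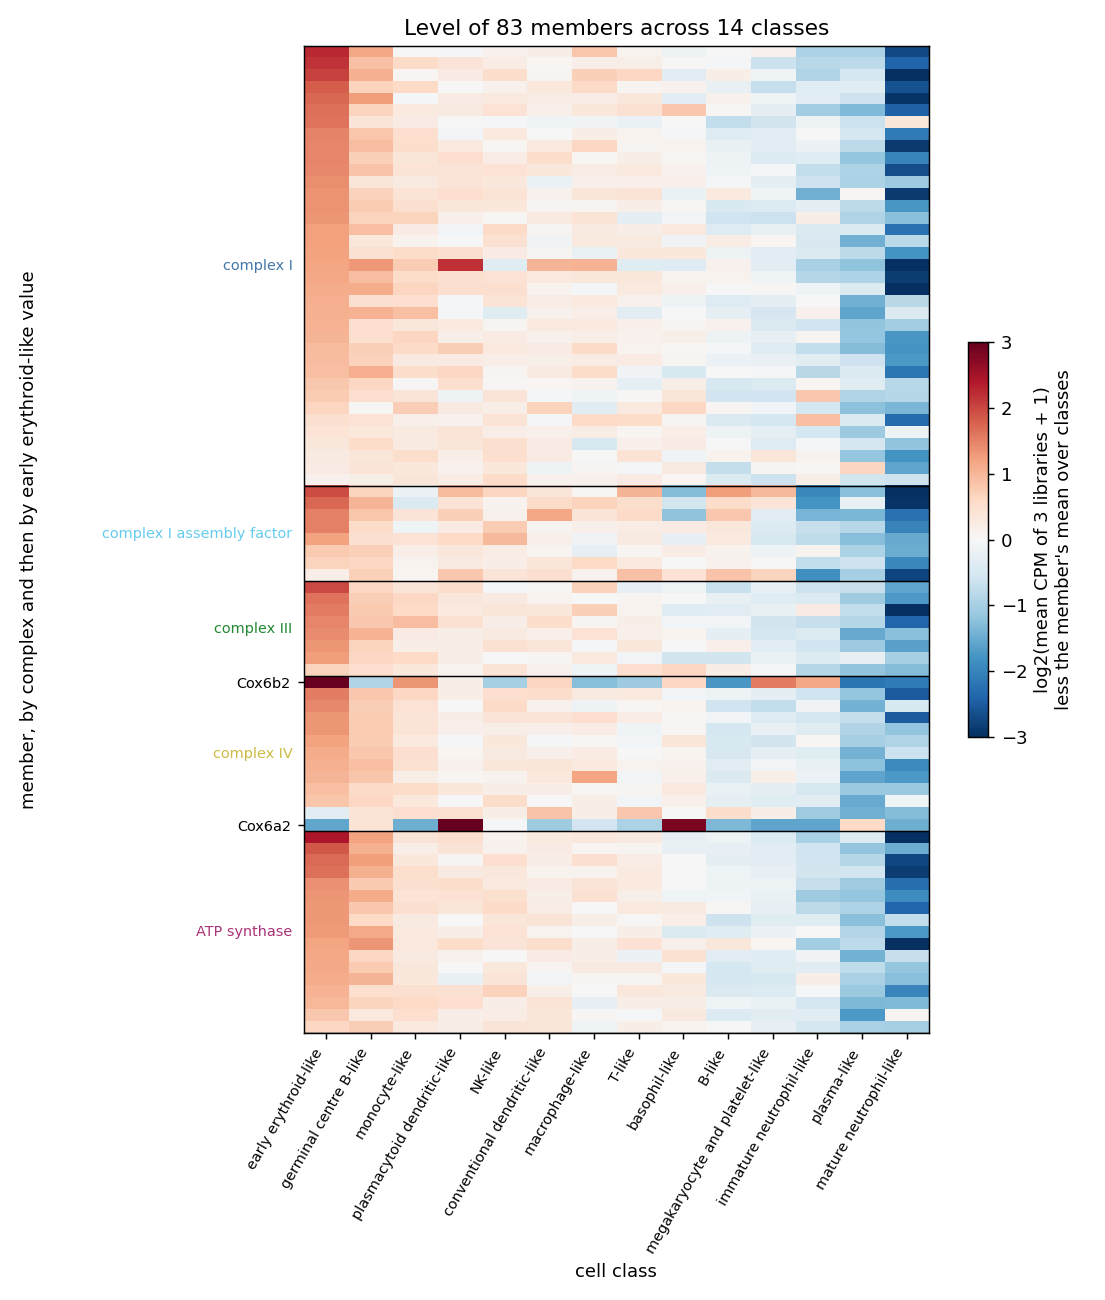
Level of 83 members with enough UMIs (vertical, by complex and then by early erythroid-like value) in each of the 14 classes (horizontal), as log2(mean CPM of the 3 libraries + 1) less the member's mean over classes. The early erythroid-like column is the highest for most members, 67 of the 83, and the mature neutrophil-like column the lowest for 62.

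The 6 members with the widest range were Cox6a2, Cox6b2, Ndufc2, Atp5g1, Ndufa5 and Ndufaf4. Ndufc2, a small complex I subunit, was at 544, 536 and 506 CPM in plasmacytoid dendritic-like cells and at 5.99, 4.15 and 7.58 CPM in mature neutrophil-like cells. Atp5g1, one of the c-ring genes, was at 559, 503 and 592 CPM in early erythroid-like cells and at 11.2, 5.93 and 11.2 CPM in mature neutrophil-like cells. Ndufa5, an accessory complex I subunit, was at 178, 219 and 236 CPM in early erythroid-like cells and at 1.6, 2.97 and 4.89 CPM in mature neutrophil-like cells. Ndufaf4, an assembly factor of complex I, was at 91.5, 63.7 and 80 CPM in early erythroid-like cells and at 1.6, 1.19 and 0.978 CPM in mature neutrophil-like cells. High and low classes were far apart in every library, though the low values rest on few UMIs.

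Cox6a2, the heart and skeletal muscle isoform of a complex IV subunit, was counted mainly in plasmacytoid dendritic-like cells. It had 353, 430 and 680 UMIs there (609, 783 and 599 CPM), and made up 64.3%, 65.2% and 60.3% of the UMIs of the Cox6a1 and Cox6a2 pair. A Cox6a2 UMI was found in 30 of 41 cells (73.2%), 28 of 37 (75.7%) and 47 of 82 (57.3%), at median depths of 15397, 15992 and 13468 UMIs per cell. In B-like cells the share of cells was 0.0828%, 0.134% and 0.111% at median depths of 8298, 8533 and 7884, and in plasma-like cells 3.56%, 4.4% and 3.23%. In MASH-Phe-free alone, basophil-like cells held 25 Cox6a2 UMIs (60.8 CPM) and germinal centre B-like cells 21, against 0 for both classes in Chow and in MASH. The share of cells with a UMI in the plasmacytoid dendritic-like class was above the background of B-like cells in each library. Cox6a1, the widely expressed partner, was also present in plasmacytoid dendritic-like cells at 338, 419 and 394 CPM.

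Cox6b2, known as the testis isoform of another complex IV subunit, was counted mainly in early erythroid-like cells. It had 922, 2974 and 4773 UMIs there (228, 172 and 188 CPM), which were 27.6%, 22.1% and 22.6% of the Cox6b1 and Cox6b2 pair. A UMI was found in 64.4%, 59% and 66.6% of early erythroid-like cells and in 0.725%, 0.917% and 0.665% of B-like cells, at median depths of 17050, 9173 and 15351 and of 8298, 8533 and 7884 UMIs. Lower shares of the pair were counted in monocyte-like cells, 4.82%, 3.01% and 3.98%, and in immature neutrophil-like cells, 4.76%, 6.82% and 6.37%. Megakaryocyte and platelet-like cells had 5%, 5.11% and 11.8%, on only 3, 7 and 18 UMIs of Cox6b2. The class order was the same in the 3 libraries for erythroid, monocyte-like and B-like cells, whose share of the pair was 0.531%, 0.566% and 0.418%.

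Ndufa4l2, a hypoxia-inducible relative of Ndufa4 whose protein has been placed with complex IV in spite of its name, was counted in plasma-like cells. It had 35, 37 and 90 UMIs there (5.95, 6.03 and 11.4 CPM), in 10.3%, 10.4% and 17.9% of cells. B-like cells had 0, 0 and 5 UMIs, and the plasmacytoid, monocyte-like and conventional dendritic-like cells had 0 in each library. Cox4i2, the lung isoform of Cox4, had 22, 17 and 18 UMIs in macrophage-like cells, 0.717%, 0.465% and 0.406% of its pair. Cox7a1, Cox7b2, Cox8b and Cox8c were at or near 0, with 8, 16 and 10 UMIs of Cox7a1 in B-like cells.

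The 3 c-ring genes, which encode the same mature protein behind different import sequences, were used in different proportions. Atp5g1 gave 24%, 24.2% and 24.9% of their UMIs in early erythroid-like cells and 12.2%, 12.5% and 13.2% in B-like cells. Atp5g2 gave 50.9%, 49.3% and 50.7% in B-like cells and 30%, 28.5% and 28% in early erythroid-like cells. Atp5g3 gave 62.2%, 58.8% and 59.6% in mature neutrophil-like cells and 36.9%, 38.2% and 36.1% in B-like cells. These class values did not overlap. A 5′ tag counts transcripts once, so isoform shares needed no length correction, but how the counting treated reads that match near-identical copies, such as Ndufb4 and Ndufb4b or processed pseudogenes, is not given in the sources used here.

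**Figure D3:**
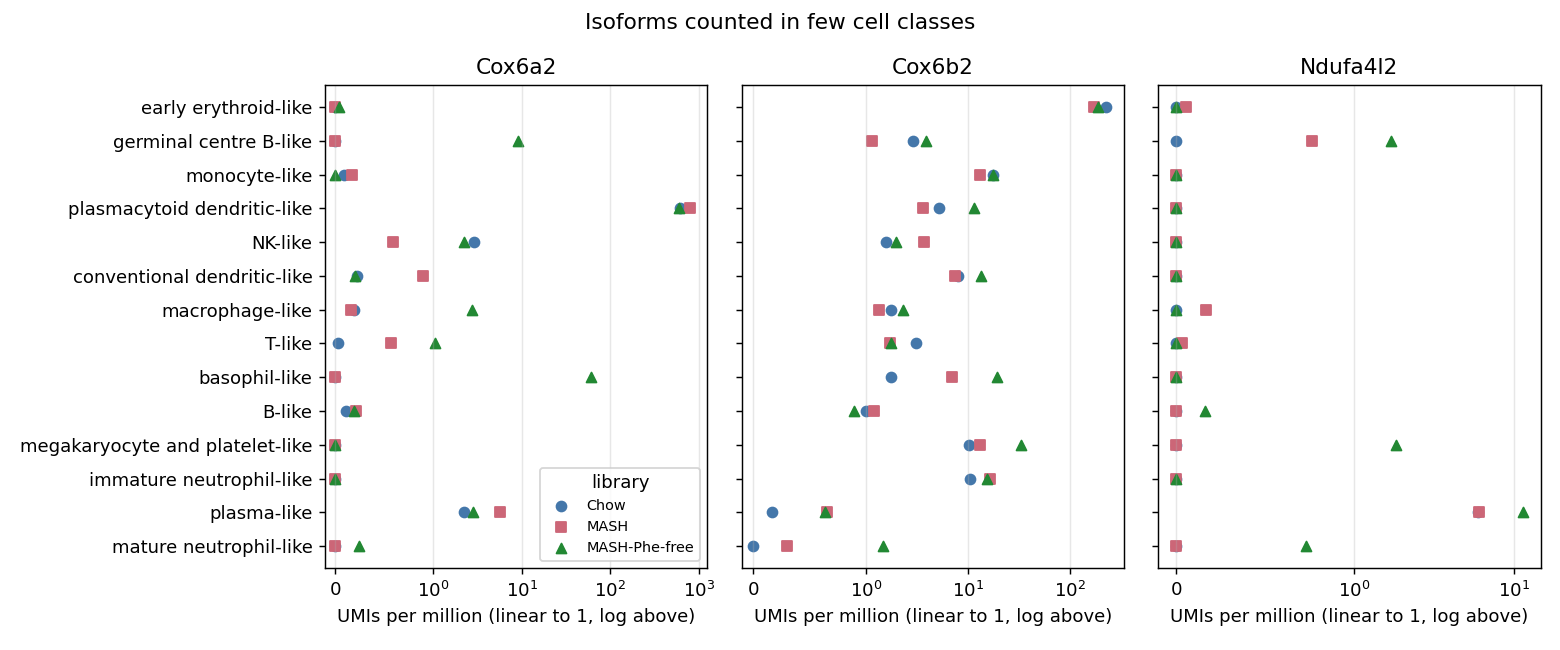
Levels in CPM of isoforms counted in few classes (horizontal, linear to 1 and logarithmic above) by cell class (vertical), 1 point per library. Cox6a2 stands out in plasmacytoid dendritic-like cells at 599 to 783, Cox6b2 in early erythroid-like cells at 172 to 228, and Ndufa4l2 in plasma-like cells at 5.95 to 11.4.

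Cell classes were then compared within libraries, with UMIs summed per class and library and edgeR's quasi-likelihood test with library as a block, p-values adjusted by Benjamini-Hochberg over 15299 genes. A gene was called at an adjusted p under 0.05 and at least 1.5-fold, and 87 members were tested. All 14 classes went into the same fit, so the spread behind the p-values is pooled over them and not over the compared classes alone. The library block takes out differences between libraries that the classes share. What remains includes any library or group difference particular to a class, and p-values cover these 3 libraries only. Members had no part in the clustering, but genes that vary with them did.

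Early erythroid-like against B-like cells gave the most members higher of the 6 comparisons. Of 87 members 82 rose, where 35.7% of all genes rose, and 0 fell, where 31.2% of all genes fell. At an unadjusted p under 0.05 the counts were 82 and 1, and DESeq2 gave 81 and 1. The members' median log2 fold change was 1.84 against 0.07 for all genes. All 17 ATP synthase genes, 39 of 40 complex I genes, 7 of 8 assembly factors, all 8 complex III genes and 11 of 14 complex IV genes rose.

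Uqcr11, a small subunit of complex III, was at 469, 507 and 542 CPM in early erythroid-like cells and 78.1, 82.5 and 80.5 CPM in B-like cells, a log2 fold change of 3.13 ± 0.129 (SE, edgeR's quasi-likelihood test, Benjamini-Hochberg adjusted p = 1.23e-20). Atp5g1 rose by 3.05 ± 0.127 and Ndufb9, an accessory complex I subunit, by 2.86 ± 0.126 on the same scale. All 15 subunits listed for the comparison rose, from Ndufs8 (1.36), an iron-sulphur subunit of complex I, to Ndufv1 (2.72), its NADH-binding subunit. The list holds the nuclear core subunits of complex I, Uqcrfs1, Uqcrc1, Uqcrc2, Cox4i1, Cox5a, Cox5b and the alpha and beta subunits of ATP synthase. Cox6b2 had the highest log2 fold change, 8.00, with 43, 49 and 28 UMIs in B-like cells. Cox7a2l stood below B-like cells by 0.38 on the log2 scale (edgeR, Benjamini-Hochberg adjusted p = 0.00743), short of the 1.5-fold needed for a call.

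Other mitochondrial genes differed by group. Mitochondrial ribosomal protein genes rose in 76 of 78 cases and tricarboxylic acid cycle genes in 16 of 17, and all 16 cell cycle genes rose. Of the 13 mitochondrially encoded subunits 0 rose and 0 fell by edgeR's quasi-likelihood test, with a median log2 fold change of 0.05. At an unadjusted p under 0.05, 4 of these were lower and 0 higher, and DESeq2 called 1 lower.

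Germinal centre B-like against B-like cells gave a smaller median rise, over fewer members. Of the 87 members 73 rose, where 19.8% of all genes rose, and 0 fell, where 15.4% of all genes fell. At an unadjusted p under 0.05 the counts were 81 and 0, and DESeq2 called 70 and 0. The members' median was 1.15 against -0.06 for all genes. All 17 ATP synthase genes, 34 of 40 complex I genes, 7 of 8 complex III genes, 12 of 14 complex IV genes and 3 of 8 assembly factors rose.

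Atp5j, the coupling factor 6 subunit of ATP synthase, was at 488, 460 and 485 CPM in germinal centre B-like cells and 151, 175 and 169 CPM in B-like cells, a log2 fold change of 1.73 ± 0.107 (SE, edgeR's quasi-likelihood test, Benjamini-Hochberg adjusted p = 5.82e-15). Atp5g3 rose by 1.73 ± 0.12 and Atp5k, a small membrane subunit, by 1.70 ± 0.123. Of the 15 listed subunits 14 rose, and the exception, Ndufs1, the largest subunit of complex I, was at 0.33. The members with the lowest values, none of them called, were Ndufaf4 (-0.32), Cox7a2l (0.07), the assembly factor Ndufaf5 (0.09) and Ndufa6 (0.16).

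All 16 cell cycle genes rose in germinal centre B-like cells as well, as did 61 of 78 mitochondrial ribosomal protein genes and 8 of 17 tricarboxylic acid cycle genes. Of the mitochondrially encoded subunits 0 of 13 were called in either direction by edgeR's quasi-likelihood test. At an unadjusted p under 0.05, 3 were lower and 0 higher, and DESeq2 called 1 lower. The part of cell division in the member values was not tested.

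Plasma-like against B-like cells gave a result that depends on the scaling. With TMM factors, which scale libraries on the bulk of genes and so set aside the immunoglobulin genes, 62 of 87 members rose, where 25.3% of all genes rose, and 2 fell, where 18.8% of all genes fell. With UMI totals alone, in which immunoglobulin takes most of the plasma total, 4 rose and 55 fell. The median of all genes itself lay between -1.58 and 0.11 over the settings tried, and members stood above it by 0.7 to 0.88. The main median was 0.85 against 0.03 for all genes. Without the MASH-Phe-free library 38 members rose and without the MASH library 39.

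Ndufa1, a small membrane subunit of complex I, stood apart: it was at 216, 195 and 228 CPM in plasma-like cells and 75.8, 87.3 and 83.6 CPM in B-like cells even per total UMI, and rose by 3.07 ± 0.126 on the log2 scale (SE, edgeR's quasi-likelihood test, Benjamini-Hochberg adjusted p = 6.69e-20). Uqcrq, a complex III subunit, rose by 2.0 ± 0.116, with 144, 135 and 150 CPM against 108, 121 and 119. Ndufs5, an accessory complex I subunit, rose by 1.81 ± 0.101, with 73.9, 75.3 and 84.8 CPM against 68.5, 73.4 and 73.6. Both were called with TMM factors and not with UMI totals, where they stood 0.3 and 0.12 above B-like cells.

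By complex, 31 of 40 complex I genes, 14 of 17 ATP synthase genes, 5 of 8 complex III genes and 10 of 14 complex IV genes rose with TMM factors. The assembly factors were split, with 2 of 8 higher and 2 lower. Ndufaf4 fell by 0.94 and Ndufaf6 by 0.91 on the log2 scale, with TMM factors. Among the listed subunits that were not called, Ndufs1 was at -0.03, Uqcrc2 at 0.45 and Cox5a at 0.53. Tricarboxylic acid cycle genes did not move with them: 1 of 17 rose and 2 fell, and 31 of 78 mitochondrial ribosomal protein genes rose and 1 fell.

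B-like against T-like cells differed in few members. Of 87 members 0 rose, where 17.5% of all genes rose, and 16 fell, where 21.7% of all genes fell. The member share of calls was below that of all genes in both directions. At an unadjusted p under 0.05 there were 1 higher and 69 lower by edgeR's quasi-likelihood test, and DESeq2 called 0 and 12. The median was -0.39 against -0.08 for all genes.

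Ndufv3, an accessory complex I subunit, was at 68.5, 73.8 and 78.8 CPM in B-like cells and 130, 152 and 157 CPM in T-like cells (log2 fold change -1.06 ± 0.103 SE, edgeR's quasi-likelihood test, Benjamini-Hochberg adjusted p = 1.18e-10). Atp5h and Atp5j2, subunits of the ATP synthase stalk and membrane part, each fell by 0.87. Cox6b2 fell by 1.17, from 3.11, 1.7 and 1.76 CPM in T-like cells to 0.995, 1.19 and 0.894. Of the listed subunits only Cox5b was called, at -0.72. The T-like class holds a dividing cluster, and all 16 cell cycle genes were lower in B-like cells. The number lower was 7 with the highest doublet scores left out.

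Mature neutrophil-like against monocyte-like cells gave the most members lower of the 6 comparisons. Of 87 members 57 fell, where 31.7% of all genes fell, and 5 rose, where 32.5% of all genes rose. The median was -1.17 against 0 for all genes. All 8 assembly factors fell, with 26 of 40 complex I genes, 11 of 17 ATP synthase genes, 5 of 8 complex III genes and 7 of 14 complex IV genes. With UMI totals alone 80 fell and 1 rose.

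Ndufc2 was at 5.99, 4.15 and 7.58 CPM in mature neutrophil-like cells and 193, 199 and 190 CPM in monocyte-like cells, a log2 fold change of -4.00 ± 0.172 (SE, edgeR's quasi-likelihood test, Benjamini-Hochberg adjusted p = 9.92e-20). Ndufa11, a membrane subunit of complex I, had 5.59, 4.15 and 7.58 CPM against 145, 147 and 158, a log2 fold change of -3.65 ± 0.159. Among the listed subunits Ndufs3 fell by 2.40 and Uqcrfs1, the Rieske iron-sulphur protein of complex III, by 2.34. Ndufs1, Cox5b and Ndufs7 were not called, at 0.12, 0.14 and -0.36. Both groups of libraries were far apart for the first 2 genes.

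Of the 5 calls in the other direction 4 rest on the scaling, and the fifth, Ndufa4l2, on 3 UMIs in the MASH-Phe-free library against 0. Ndufb9 was at 197, 179 and 207 CPM against 166, 189 and 192 in monocyte-like cells and was called at 1.12 on the log2 scale, and at 0.09, not called, with UMI totals. Ndufa7, Atp5l and Cox8a were called at 0.62, 0.60 and 0.59, although their CPM were lower than in monocyte-like cells, and with UMI totals they stood at -0.4, -0.43 and -0.44. Cox8a was at 457, 414 and 560 CPM against 587, 658 and 699. Without the MASH-Phe-free library 0 members rose, without the MASH library 1 and without the Chow library 3.

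The other mitochondrial lists fell too. Of the 13 mitochondrially encoded subunits 11 fell, as did 64 of 78 mitochondrial ribosomal protein genes, with 4 higher, and 12 of 17 tricarboxylic acid cycle genes, with 1 higher. Of 16 cell cycle genes 15 fell. Median depth of the mature neutrophil-like cells was 3996, 4158 and 3846 UMIs, against 15704, 17993 and 15559 in monocyte-like cells. Its part in these counts was not tested.

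Plasmacytoid against conventional dendritic-like cells differed in single members. Of 87 members 2 rose, where 10.4% of all genes rose, and 8 fell, where 14.3% of all genes fell, both shares below those of all genes. Cox6a2 was counted 353, 430 and 680 times against 1, 6 and 1, and its fitted log2 fold change of 10.11 depends on the prior count. Ndufc2 was at 544, 536 and 506 CPM against 272, 219 and 208 and rose by 0.84 ± 0.13 (SE, edgeR's quasi-likelihood test, Benjamini-Hochberg adjusted p = 3.89e-06). Cox7a2l fell by 0.73, with 252, 275 and 255 CPM against 373, 342 and 313. Without the MASH-Phe-free library 17 members fell, and with UMI totals 0.

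**Figure D4:**
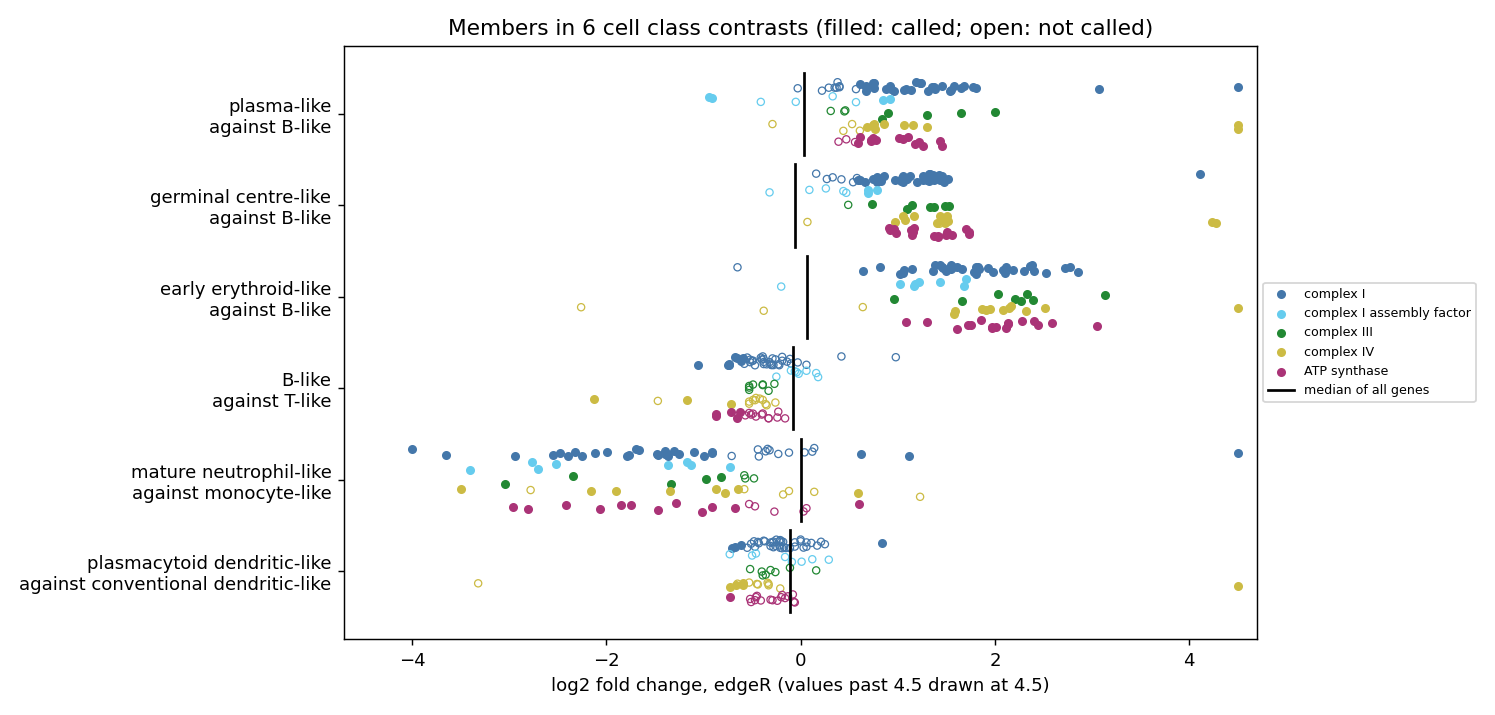
Log2 fold change of each member by edgeR (horizontal; values past 4.5 drawn at 4.5) in the 6 class comparisons (vertical), coloured by complex, filled where called. Early erythroid-like and germinal centre-like members lie right of 0 in the main (82 and 73 of 87 called higher), and mature neutrophil-like members lie mostly left (57 called lower).

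Between libraries, each class was compared by the ratio of CPM, for genes with at least 100 UMIs in the pair. The 95% intervals are exact conditional binomial ones and cover counting error only. A gene was counted when it differed by at least 0.32 as a log2 ratio, in either direction, with an interval that excluded 1. The MASH to Chow ratio of the summed members was above 1 in 12 of the 14 classes and under 1 in mature neutrophil-like and basophil-like cells. The MASH and MASH-Phe-free values of a class share the MASH library, so the 2 ratios are not independent.

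In B-like cells the members were close between libraries. The MASH to Chow ratio of the sum was 1.08 (1.08 to 1.09), with 75 of 83 members above 1. None reached the count (0 higher and 0 lower of 83), where 5.24% of all genes were higher and 5.42% lower. Ndufaf8, an assembly factor, came nearest with 38.2 CPM in Chow and 47.6 in MASH. MASH-Phe-free over MASH was 1.01 (1 to 1.01), again with 0 and 0 of 83, where 2.21% of all genes were higher and 4.11% lower. Cox4i1 was the farthest above, at 1.14 (1.12 to 1.16), and Cox7a2l was at 0.893 (0.868 to 0.919).

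In T-like cells MASH over Chow was 1.09 (1.08 to 1.09) for the sum. Of 84 members 3 were higher, where 5.87% of all genes were higher, and 1 was lower, where 5.02% were lower. The 3 were the assembly factor Ndufaf3, at 24.4 and 31.7 CPM, and the accessory complex I subunits Ndufc1, at 67.1 and 86.4, and Ndufa3, at 106 and 135 (1.27, 1.21 to 1.33). The lower one was Cox6b2, at 3.11 and 1.7 CPM (0.548, 0.38 to 0.781). MASH-Phe-free over MASH was 1.02 (1.01 to 1.02), with 0 higher and 1 lower of 83, where 3.05% of all genes were higher and 3.79% lower. The 1 was Ndufb4b, at 3.83 and 2.62 CPM, a near copy of Ndufb4. Cox7a2l was at 339, 355 and 306 CPM in Chow, MASH and MASH-Phe-free (0.862 for the last pair, 0.835 to 0.889). The same ratio of Cox7a2l was 0.885 in monocyte-like, 0.89 in early erythroid-like, 1.12 in plasma-like and 1.1 in mature neutrophil-like cells, each short of the size needed to be counted. It was counted as lower in 3 classes, in macrophage-like cells at 239 and 180 CPM (0.755, 0.699 to 0.816), in megakaryocyte and platelet-like cells at 0.77 (0.596 to 0.993) and in basophil-like cells at 0.701 (0.491 to 0.996), the last on 83 and 56 UMIs.

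In monocyte-like cells MASH over Chow was 1.11 (1.1 to 1.12). Of 83 members 7 were higher, where 7.15% of all genes were higher, and 2 lower, where 13.7% were lower. Ndufv3 was at 90.5 and 125 CPM (1.38, 1.27 to 1.5) and Ndufa3 at 107 and 147 (1.37, 1.27 to 1.48). Cox6b2 at 17.8 and 13 CPM and Ndufaf4 at 19.1 and 15.2 were the 2 lower ones. MASH-Phe-free over MASH was 1.01 (1 to 1.02), with 2 higher and 0 lower of 84, where 7.03% of all genes were higher and 5.78% lower. The 2 were Cox6b2, at 17.5 CPM in MASH-Phe-free, and Ndufaf5, at 7.62 and 10.3. The 16 cell cycle genes were also lowest in the MASH class, at 0.112%, 0.0472% and 0.107% of UMIs in Chow, MASH and MASH-Phe-free, and the 11 late erythroid markers highest there, at 48.9, 566 and 119 CPM with 2, 0 and 1 at 0. Their part in the values of Cox6b2 and Ndufaf4 was not tested. With the highest doublet scores left out, the MASH-Phe-free over MASH ratio of the sum changed sign on the log2 scale.

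In plasma-like cells MASH over Chow was 1.02 (1.01 to 1.04). Of 76 members 5 were higher, where 4.63% of all genes were higher, and 0 lower, where 14.1% were lower. Ndufa9, an accessory complex I subunit, was at 18 and 25.7 CPM (1.43, 1.11 to 1.85) and Ndufa3 at 53 and 70.7 (1.33, 1.15 to 1.55). The others were Ndufa5, Ndufb2 and Uqcrb. MASH-Phe-free over MASH was 1.08 (1.07 to 1.09), with 2 higher and 1 lower of 78, where 5.11% of all genes were higher and 8.51% lower. Ndufa4l2 was at 6.03 CPM in MASH and 11.4 in MASH-Phe-free, a ratio of 1.9 (1.28 to 2.86) on 37 and 90 UMIs. Ndufv1, a core complex I subunit, was the lower one, at 27.9 CPM in MASH and 21.7 in MASH-Phe-free. As a log2 value the first of these sums turned to -0.08 with the clusters of the class weighted alike and to -0.02 with the highest doublet scores left out.

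In early erythroid-like cells MASH over Chow was 1.02 (1.01 to 1.03), with 0 higher and 3 lower of 84, where 10.6% of all genes were higher and 20.8% lower. The 3 were Ndufaf4, at 91.5 and 63.7 CPM (0.696, 0.618 to 0.785), Cox6b2, at 228 and 172 (0.755, 0.701 to 0.814), and the assembly factor Ndufaf6. MASH-Phe-free over MASH was 1.06 (1.05 to 1.06), with 2 higher and 0 lower of 84, where 9.96% of all genes were higher and 9.91% lower. The 2 were Ndufaf4, at 80 CPM in MASH-Phe-free (1.26, 1.17 to 1.35), and Ndufaf5, at 8.34 and 11.4. With the highest doublet scores left out, the log2 value for MASH over Chow turned to -0.06. The Chow class held 101 cells, against 597 and 668. Late erythroid transcripts were highest in the MASH class: the 11 late erythroid markers summed to 6630, 35100 and 10300 CPM in Chow, MASH and MASH-Phe-free, with none at 0, and haemoglobin genes took 0.586%, 3.32% and 0.934% of UMIs. The median depth of the class was 17050, 9173 and 15351 UMIs. The part of these in the values of Ndufaf4, Cox6b2 and the others was not tested.

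Among the 14 classes compared, mature neutrophil-like cells differed most between MASH-Phe-free and MASH. For MASH over Chow their log2 ratio of the sum was -0.23, and other classes moved about as far upwards. Megakaryocyte and platelet-like cells were at 0.23, macrophage-like cells at 0.21 and NK-like cells at 0.19. The first of these rests on 85 cells in Chow and 129 in MASH, with immunoglobulin at 4.93% and 0.945% of UMIs. With immunoglobulin, haemoglobin and mitochondrial genes left out of the total, its member shares were 1.07% and 1.21%. As a ratio, the members' sum in mature neutrophil-like cells was 0.852 (0.832 to 0.873) for MASH over Chow. It was 1.38 (1.35 to 1.41) for MASH-Phe-free over MASH. Of 56 members 17 were lower in MASH, where 22.4% of all genes were lower, and 1 was higher, where 8.67% were higher. In MASH-Phe-free against MASH 50 of 59 were higher, where 20.9% of all genes were higher, and 0 were lower, where 9.26% were lower. The median log2 ratio of the latter was 0.54 against 0.08 for all genes.

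By complex, 13 of 16 ATP synthase genes, 21 of 25 complex I genes, 7 of 7 complex III genes and 9 of 11 complex IV genes were higher in MASH-Phe-free. Ndufs6, a complex I subunit, was at 18.4, 11.6 and 26.4 CPM in Chow, MASH and MASH-Phe-free, a ratio of 2.28 (1.57 to 3.38) for the last pair. Uqcr11 was at 41.9, 29.7 and 55 CPM (1.85, 1.46 to 2.37). Ndufa1 was at 52.7, 29.1 and 53.5 CPM, 0.551 (0.42 to 0.721) and then 1.84 (1.45 to 2.36). In these 3 genes the MASH library was the lowest.

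Cox7b, a small complex IV subunit, was at 31.2, 20.8 and 36.7 CPM, and Ndufv2, a core subunit of complex I, at 30, 16.6 and 27.6 CPM. Cox4i1 was at 282, 233 and 317 CPM (1.36, 1.24 to 1.49) and Atp5b at 105, 84.2 and 110 CPM (1.3, 1.12 to 1.51). Ndufs1 was the exception in MASH, at 19.2, 27.6 and 25.4 CPM, 1.44-fold with a lower bound that rounds to 1. Cox5b, at 201, 205 and 219 CPM, was close in all libraries. Over the settings tried, 47 to 50 members were higher in MASH-Phe-free and 16 to 19 lower in MASH.

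Other genes moved beside the members. In MASH-Phe-free against MASH, 6 of 11 mitochondrially encoded subunits tested were lower and 0 higher, while 5 of 8 tricarboxylic acid cycle genes and 9 of 22 mitochondrial ribosomal protein genes were higher. Immunoglobulin transcripts made up 0.074%, 0.0514% and 2.29% of the UMIs of mature neutrophil-like cells, and the 11 plasma markers summed to 1110, 983 and 2540 CPM with 4, 2 and 0 of them at 0. The 11 late erythroid markers summed to 281, 840 and 1690 CPM with 2, 0 and 0 at 0, and haemoglobin genes took 0.0256%, 0.0804% and 0.162% of UMIs. The 10 immature neutrophil markers summed to 2900, 1730 and 1530 CPM with 0, 1 and 0 at 0, so that MASH-Phe-free was the lowest of the 3. The part of these transcripts in the member values was not tested. With immunoglobulin, haemoglobin and mitochondrial genes left out of the total, the log2 ratio of the sum was 0.5, against 0.46 with them.

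**Figure D5:**
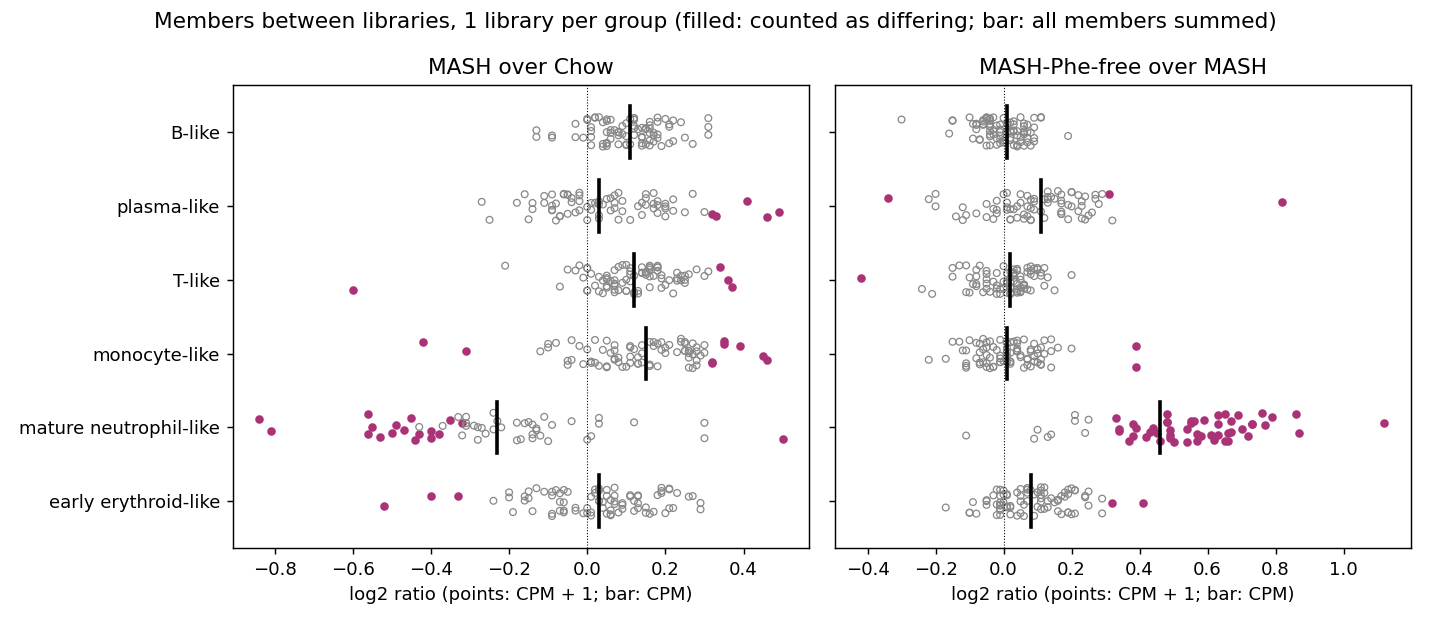
Log2 ratio of CPM + 1 for each member (points) and of CPM for the members' sum (bar) in 6 classes, MASH over Chow and MASH-Phe-free over MASH, with 1 library per group and members counted as differing drawn filled. Among these 6 classes mature neutrophil-like cells lie apart, with a sum at -0.23 and then 0.46. The other 5 classes stay between 0.01 and 0.15. Megakaryocyte and platelet-like cells, not drawn, had a sum at 0.23 for MASH over Chow.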

How the data were processed

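The deposited files hold raw UMI counts per gene and barcode for 3 spleen libraries (10x 5′ v2), made with Cell Ranger 9.0.1 per the file headers. The submitters' processing notes name GRCm39, mm39 and Seurat 5.3.0, with no role given. No per-cell annotation was used. The number of animals behind each library is not given.

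Barcodes with at least 300 genes, 500 UMIs and at most 10% mitochondrial UMIs were kept, and doublets called per library (1.97%, 1.8% and 1.92%) were removed. Cells were clustered with scanpy 1.11.5 (2000 variable genes without the members, 30 principal components, 15 neighbours, resolution 1.0, and 0.5 for clusters divided again). Clusters were named from marker lists at a score of at least 1.5. How close calls, exocrine pancreas genes and the plasma cluster were handled was decided after the clusters were seen. UMIs were summed per class and library and tested with edgeR 4.0.16 (quasi-likelihood, TMM, library as block, 26 residual degrees of freedom), checked on simulated data, with DESeq2 1.42.0 as an alternative. The members were compared across classes by CPM. Log2 ratios between libraries use an offset of 1 CPM.

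Members, gene lists and comparisons were chosen with earlier results of these data known. Named members are the isoform pairs, the subunits listed for the class comparisons, Cox7a2l and the 6 with the widest range across classes. In each comparison the 4 farthest in each direction among members with at least 100 UMIs are named too. The inhibitor of ATP synthase has another symbol in the files and falls outside the rule. Alternatives were UMI totals without TMM, DESeq2, no low-count filter, another denominator, a stricter cell filter (1000 genes, 5% mitochondrial), leaving out the 15% highest doublet scores, per-cell marker gates, equal weights of clusters, and each library left out. Promoters are from RefSeq, GRCm38.p6, and were matched by symbol. One member counted in the totals is not reported here by name.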

Additional observations from a re-analysis of the deposited data

Results flagged for a closer look

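The summed members in mature neutrophil-like cells had a log2 ratio of MASH over Chow of -0.23, and in monocyte-like cells of 0.15. The pair was singled out because these 2 myeloid classes moved in opposite directions between the same libraries. The rise was not particular to monocyte-like cells, since 12 of the 14 classes compared had a ratio above 1. Macrophage-like cells (1.34% in Chow and 1.55% in MASH) and immature neutrophil-like cells (0.949% and 1.03%) were among them. The difference between the classes was not tested, since each group has 1 library.

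Ndufa4l2 had 65 UMIs in the stroma and endothelium-like cells of the MASH-Phe-free library and 0 in those of Chow and MASH. This class was not compared because it held under 30 cells in each library. The 65 UMIs came from 3 of 20 cells, and 56 of them from 1 cell.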

How the results depend on the processing

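Each setting changed 1 choice. The members' median less that of all genes kept its sign in all class comparisons and settings tried. No paired analysis was possible because each group has 1 library; library was the block in the class comparisons. The plasmacytoid comparison had no value with the highest doublet scores left out, since the class fell below 30 cells. Causes of the moves below were not tested, beyond the immunoglobulin share named in the report for UMI totals in plasma-like cells.

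In plasma-like against B-like cells the 62 members higher became 4 with UMI totals, 37 with no low-count filter, 38 with the stricter cell filter and 38 to 62 with 1 library left out. The 2 lower became 55 with UMI totals, 4 with no low-count filter, 4 with the stricter filter and 1 to 4 with 1 library left out. The 0 lower in germinal centre B-like cells became 1 with no low-count filter and 0 to 1 with 1 library left out. The 0 lower in early erythroid-like cells became 2 with UMI totals, 1 with DESeq2, 2 with no low-count filter, 1 without immunoglobulin, haemoglobin and mitochondrial genes, 1 with the stricter filter, 1 without high doublet scores and 0 to 2 with 1 library left out. The 16 lower in B-like against T-like cells became 10 without those genes, 10 with the stricter filter, 7 without high doublet scores and 7 with marker gates. The 5 higher in mature neutrophil-like cells became 1 with UMI totals, 2 with no low-count filter, 2 without those genes, 1 with the stricter filter, 2 without high doublet scores, 1 with marker gates and 0 to 3 with 1 library left out. The 8 lower in plasmacytoid dendritic-like cells became 0 with UMI totals, 5 with DESeq2, 19 with no low-count filter, 5 with the stricter filter and 7 to 17 with 1 library left out.

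Of 60 alternatives of the summed log2 ratios between libraries, 38 stayed within the counting interval, 16 moved and 6 changed sign. Sign changes for MASH over Chow were -0.02 without high doublet scores and -0.08 with clusters weighted alike in plasma-like cells, and -0.06 without high doublet scores in early erythroid-like cells. For MASH-Phe-free over MASH they were -0.02 without high doublet scores, -0.01 with marker gates and -0.01 with clusters weighted alike, all in monocyte-like cells. The other moves for MASH over Chow were 0.14 with gates in B-like cells, 0.11 with the other denominator and 0.12 with gates in plasma-like cells, 0.1 with clusters weighted alike in T-like cells, 0.23 without high doublet scores and 0.17 with gates in monocyte-like cells, and 0.07 with the other denominator and 0.05 with gates in early erythroid-like cells. For MASH-Phe-free over MASH they were 0.05 without high doublet scores and 0.17 with clusters weighted alike in plasma-like cells, 0.01 with gates and 0 with clusters weighted alike in T-like cells, 0.5 with the other denominator in mature neutrophil-like cells, and 0.04, 0.17 and 0.06 with the other denominator, without high doublet scores and with gates in early erythroid-like cells. The 1 member higher in MASH mature neutrophil-like cells became 0 with the stricter filter, without high doublet scores and with gates.

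Of 472 alternatives for named members 393 kept their call and direction, 42 lost the call, 26 gained one and 11 changed sign. The sign changes were all in mature neutrophil-like against monocyte-like cells: with UMI totals Ndufa7, Atp5l and Cox8a were at -0.4, -0.43 and -0.44, and with the stricter filter at -0.05, -0.05 and -0.07. With 1 library left out they ranged from -0.14 to 0.59, from -0.07 to 0.57 and from -0.11 to 0.57.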

Other observations

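Progenitor-like cells, too few to be compared (24, 17 and 52 cells in Chow, MASH and MASH-Phe-free), also held Cox6b2. It made up 16.3%, 11.8% and 14.7% of the Cox6b1 and Cox6b2 pair there. Cox6a2 had 4, 9 and 23 UMIs in these cells.

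In plasma-like cells the member share differed between clusters, from 0.504%, 0.526% and 0.578% in the largest cluster to 1.55%, 0.948% and 1.15% in another. The plasma-like clusters held 405, 71 and 368 cells, with median depths of 10057, 916 and 32948 UMIs per cell. The part of depth in these shares was not tested. In monocyte-like cells the cluster led by Vcan and F13a1 had 1.59%, 1.79% and 1.78%, and the cluster led by Ace, a gene of patrolling monocytes, 1.2%, 1.29% and 1.24%. The Elane and Mpo cluster of early neutrophil precursors had 2.21%, 2.43% and 2.41% on 3, 3 and 10 cells.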
